A study of Caenorhabditis elegans with 6 samples.

Results

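The nuclear hormone receptor genes of Caenorhabditis elegans were followed in RNA from dissected distal gonads of sin-3(tm1276) mutants and of wild-type worms. Members were taken by symbol, as every gene whose WBcel235 name is nhr followed by a number, which gave 269 genes of the 46934 gene identifiers in the count tables. All 269 are protein-coding, and 23 lie on the X chromosome, 167 on chromosome V and 79 on chromosomes I to IV. The 3 mutant libraries carry the sin-3 allele tm1276, and the 3 wild-type libraries served as control. Both genotypes were young adults, 12 h after the L4 larval stage. Gonad arms from 5 to 7 animals went into a library, severed near their bend, and only the distal portion was used, which holds proliferating and early meiotic germ cells with the somatic gonad cells around them. Stranded libraries of total RNA depleted of ribosomal RNA were read as single ends of 50 bases. The labels name neither separate cultures nor a batch. The spread between libraries, on which all p-values rest, may therefore be technical.

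Nuclear hormone receptors are transcription factors with a zinc finger DNA-binding domain and a ligand-binding domain, many of which switch target genes in response to lipids, sterols or other small molecules. Worms carry a far larger set of them than insects or vertebrates. A few have clear orthologues outside nematodes, such as nhr-23, nhr-25 and nhr-67, while most belong to a nematode expansion related to the vertebrate receptor HNF4 that is concentrated on chromosome V. Known functions are mainly somatic and include fat metabolism, moulting, detoxification and development. SIN-3 is the scaffold of a histone deacetylase complex that acts as a corepressor.

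Gene-assigned reads ranged from 24491014 to 30634455 per mutant library and from 24505604 to 25002505 per wild-type library. Levels are given as CPM (reads per 1e6, scaled with the trimmed mean of M values, TMM), and are listed for replicates 1 to 3 of each genotype in that order. Values with an SE are log2 fold changes of mutant over wild type, from edgeR's quasi-likelihood test with Benjamini-Hochberg adjusted p. A count of 0 in a library allows a level of up to 3 reads, or 0.0979 to 0.122 CPM before TMM scaling, and this covers counting error only. The targeted gene sin-3 had 179, 176 and 184 CPM in the mutant libraries, against 367, 358 and 369 CPM in the wild-type libraries. Every mutant library was below every wild-type library for it (log2 fold change -1.02 ± 0.033 (SE), adjusted p = 2e-11), with RNA still read from the locus, and counts per gene do not resolve the deleted part.

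Beside the marker counts that follow, 31.3% of all tested genes were called higher and 30.7% lower. Germ cell markers were abundant in both genotypes, with summed levels of 2756 to 2822 CPM in the mutant libraries and 2808 to 3064 CPM in the wild-type libraries over 10 genes. Of 18 tested markers of the somatic gonad and its sheath, 14 were higher and 0 lower in the mutant, at a median log2 fold change of 0.99. Their 21 listed genes summed to 2190 to 2318 CPM in the mutant and 1776 to 2073 CPM in wild type, and ehn-3 alone had no read. Intestinal markers, by contrast, had 1 of 14 tested genes higher and 0 lower, with a median of -0.66 and sums of 296 to 377 CPM in the mutant and 315 to 727 CPM in wild type. Hypodermis markers had 1 of 4 tested genes higher and 0 lower, muscle markers 0 of 11 higher and 2 lower, and neuron markers 2 of 6 higher and 3 lower. The part of somatic gonad RNA in the receptor results below was not tested. In bulk RNA, more cells of a type and more RNA per cell cannot be told apart.

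Most receptor genes were near silence in the wild-type distal gonad. No read was assigned to 69 of the 269 members in any wild-type library, 53 had a mean above 0 but under 0.1 CPM, 93 lay between 0.1 and 1 CPM, 45 between 1 and 10 CPM, and 9 reached 10 CPM. In the mutant the corresponding numbers were 61, 52, 92, 52 and 12. The share of members at 1 CPM or more differed by chromosome. It was 43.5% in the mutant and 39.1% in wild type for the 23 X-linked members, and 34.2% in the mutant and 31.6% in wild type for the 79 on chromosomes I to IV. On chromosome V, with 167 members, it was lower, at 16.2% in the mutant and 12.0% in wild type. Averaged over the 6 libraries, 13 of 23 members on X, 144 of 167 on V and 52 of 79 on I to IV were under 1 CPM. Of all protein-coding genes 1815 of 2730 on X, 3819 of 4994 on V and 6540 of 12247 on I to IV were. Chromosome V thus had the largest share under 1 CPM among protein-coding genes too. In all, 46 members had no read in any library, among them nhr-67, the tailless orthologue.

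The receptor RNA of wild-type gonads came mainly from a handful of genes. Among the 21 members averaging 5 CPM or more over all libraries, ordered per kilobase of merged exons, nhr-86 stood highest, at 43.1 ± 1.38 CPM per kb in wild type (SD, n = 3). It encodes a receptor that senses a bacterial toxin and controls immune genes in the intestine. Next came nhr-49, a receptor of fatty acid desaturation and oxidation, at 33.3 ± 0.550 CPM per kb, and its partner nhr-66 at 20.9 ± 0.523 CPM per kb. These 3 did not overlap between libraries in wild type, whereas the following pair, nhr-274 at 18.02 ± 0.832 and the moulting regulator nhr-23 at 16.8 ± 1.00 CPM per kb, did. Below a gap the levels per kb ran on from nhr-12 at 6.91 ± 0.253 and nhr-20 at 6.12 ± 0.139 to the X-linked nhr-71 at 5.32 ± 0.0445, which were also apart in every library. From nhr-13, at 4.65 ± 0.453 CPM per kb, down to nhr-22, at 2.02 ± 0.210 CPM per kb, 11 of the 12 neighbours in the order of 13 genes overlapped. The 5 highest members by CPM, nhr-66, nhr-49, nhr-86, nhr-274 and nhr-23, made up 48.8% of all receptor CPM in the mutant and 57.6% in wild type.

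Receptor genes moved largely in 1 direction in the mutant. Of 269 members, 97 passed the filter on low counts, and 54 of them were higher in the mutant, 3 lower and 40 not called at an adjusted p of 0.05. Over all 9787 tested genes 31.3% were called higher and 30.7% lower. DESeq2 called 31 members higher and 3 lower, beside 2430 higher and 3014 lower of the 12802 genes it tested. How many members DESeq2 tested is not given here, so its 31 cannot be read as a share or set against the 97. The 97 members tested with edgeR had a median log2 fold change of 0.54, beside 0.028 over all tested genes, and 80 of them were above 0. The values of 56 members in all mutant libraries exceeded all wild-type values, and those of 3 lay below them, where 34.8% and 33.0% of all tested genes did so. Changes above 1 on the log2 scale were called for 25 higher members and 1 lower member. Under scaling by library totals all genes moved up by a median of 0.17, the member median was 0.70 and 64 members were higher and 2 lower, beside 4446 higher and 1864 lower genes over the whole table.

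The filter itself has a part in these counts, since it asked for about 10 reads, or 0.400 CPM, in at least 3 libraries. Of the 97 tested members 63 passed that level in all 6 libraries, and 33 of those were higher and 3 lower. Another 29 reached it in all mutant libraries but not in all wild-type libraries, so that a difference was part of how they passed, and 21 of them were called higher. None reached it in all wild-type libraries only, and 5 passed in a mixture of libraries. The shares called over all genes by these routes, in whole or by chromosome, were not computed, here or below. Whether the member counts by route differ from those of other genes was therefore not tested. The 172 members not tested together had 449, 485 and 508 reads in the mutant libraries, against 233, 282 and 339 reads in the wild-type libraries, which is 17.3, 15.2 and 17.8 CPM in the mutant and 9.91, 12.2 and 14.4 CPM in wild type. These sums did not overlap between genotypes. The number of members with any read overlapped between genotypes, at 177, 184 and 188 in the mutant libraries and 174, 178 and 180 in the wild-type libraries, or 181 ± 4.79 in the mutant and 177 ± 3.16 in wild type (SD, n = 3 each) when all libraries are brought to the depth of the smallest. With at least 10 reads, at the depth of each library, there were 107, 116 and 113 members in the mutant libraries and 77, 78 and 80 in the wild-type libraries. Protein-coding genes with at least 10 reads also averaged more in the mutant. They numbered 1245 in the mutant and 1081 in wild type on X, 1531 and 1415 on V, and 6666 and 6328 on I to IV.

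**Figure D1:**
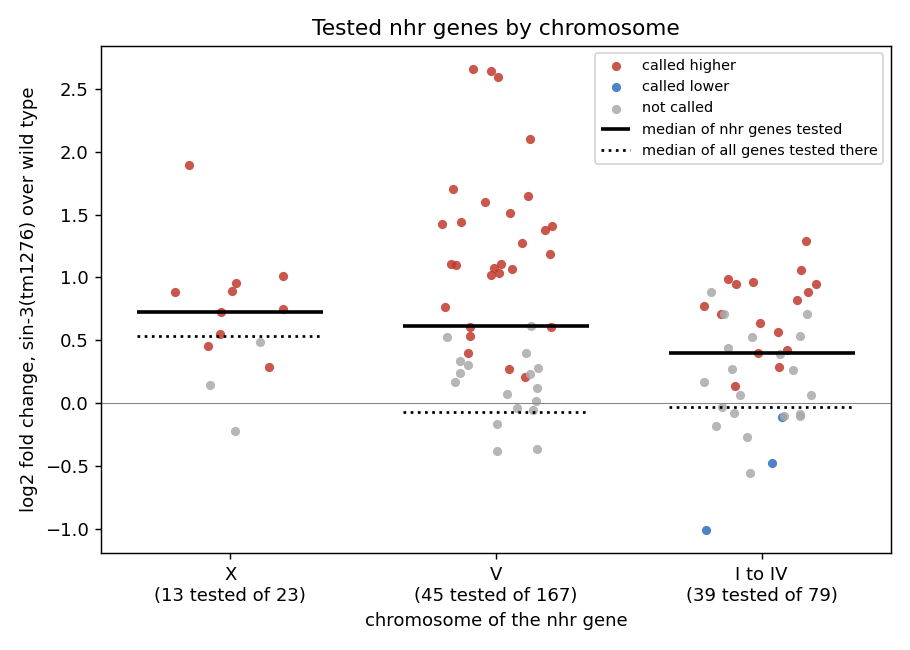
Log2 fold change of sin-3(tm1276) over wild type for each tested receptor gene by chromosome (red points called higher, blue called lower, grey not called), with the median of the tested receptor genes (solid line) and of all tested genes of those chromosomes (dotted line). The receptor medians are 0.72 on X, 0.61 on V and 0.40 on I to IV, against 0.54, -0.071 and -0.030 for all genes.

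X-linked members were the group with the highest share of higher calls, 10 of 13 tested with 0 lower, but X-linked genes as a whole were called higher in 61.5% of cases and lower in 2.97%. Their median log2 fold change was 0.72, beside 0.54 for all 1245 tested X-linked genes. Of the 10 higher X-linked members, 2 passed the filter in full only in the mutant libraries. Among the 9 above the filter level in all 6 libraries 8 were higher. On chromosome V 28 of 45 tested members were higher and 0 lower, where 25.0% of the 1590 tested genes of that chromosome were called higher and 61.0% in either direction. The median was 0.61 for the members and -0.071 for all genes of chromosome V. Where an average of 1 CPM was required 12 members of V were higher at a median of 0.36, beside 2824 of all 8188 genes then tested over the whole table. With 1 library left out the median ranged from 0.73 to 0.93 (highest without wild-type replicate 3). The filter was rerun each time and passed 10018 to 10149 genes over the whole table, beside 9787 with all libraries. These medians are therefore not over the same tested set. Of the 28 higher members there, 17 passed the filter in full only in the mutant libraries, and among the 24 members above the filter level in all 6 libraries 11 were higher. The share of all chromosome V genes called by either route was not computed. On chromosomes I to IV 16 of 39 tested members were higher and 3 lower, beside 27.2% higher and 34.5% lower among all tested genes of those chromosomes, at medians of 0.40 and -0.030. Without wild-type replicate 2 only 10 were higher there, beside 2686 of all 10122 genes then tested over the whole table. The share among all genes of chromosomes I to IV in that fit is not given here. DESeq2 called 5 higher on X, 16 on V and 10 on I to IV, beside 2430 of the 12802 genes it tested over the whole table. The members it tested and its calls over all genes of each chromosome group are not given here. The whole-table share is therefore no measure for a single group. Under library totals the member medians were 0.89 on X, 0.78 on V and 0.57 on I to IV, with all genes moved up by 0.17. Of the tested somatic gonad markers 11 of 12 autosomal genes were higher, at a median of 1.16, and 3 of 6 X-linked genes, at 0.82. In the plot of fold changes by chromosome, the changes above 1.5 lie on V, apart from 1 X-linked gene, nhr-45.

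Sums over all members, which need no filter, had the same order. X-linked receptor RNA summed to 81.9, 75.2 and 74.1 CPM in the mutant libraries, against 51.2, 49.2 and 48.2 CPM in the wild-type libraries, a ratio of 1.56. Chromosome V members summed to 186, 183 and 187 CPM in the mutant, against 145, 143 and 147 CPM in wild type, a ratio of 1.28. Members on chromosomes I to IV summed to 384, 373 and 364 CPM in the mutant, against 353, 345 and 343 CPM in wild type, a ratio of 1.08. None of the 3 groups overlapped between genotypes. All protein-coding genes of the same chromosomes had ratios of 1.35 on X, 0.842 on V and 0.891 on I to IV. The few abundant members weigh on these sums, and without the 5 highest the family's sum was 337, 319 and 320.3 CPM in the mutant, against 233, 228 and 227 CPM in wild type, a ratio of 1.42.

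**Figure D2:**
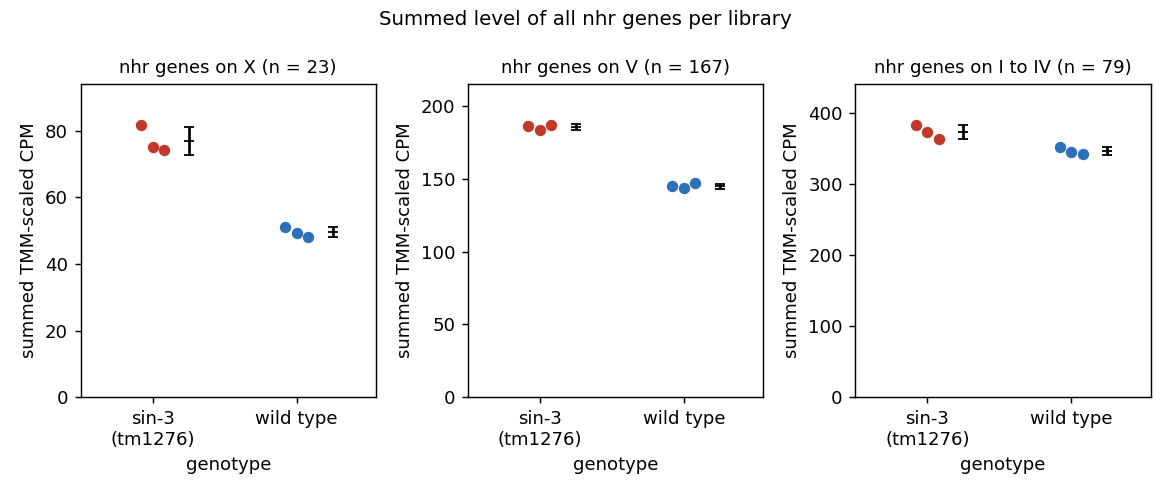
Summed TMM-scaled CPM of all receptor genes on X (23 genes), V (167 genes) and I to IV (79 genes) in each library, with the mean and SD of the 3 libraries of a genotype beside the points. The mutant libraries lie above the wild-type libraries in each panel, with ratios of 1.56, 1.28 and 1.08.

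The median change of autosomal receptors was largest at low levels, as in other autosomal genes, while the share of higher calls was not. At a mean under 1 CPM over the 6 libraries, 18 of 34 tested autosomal members were called higher and 0 lower, with a median log2 fold change of 0.95, where autosomal protein-coding genes of that level had 26.9% higher, 6.97% lower and a median of 0.35. Between 1 and 8 CPM, 18 of 39 autosomal members were called higher and 1 lower, with a median of 0.40, beside 37.0% higher, 11.8% lower and a median of 0.28 for autosomal protein-coding genes. From 8 CPM up, 8 of 11 autosomal members were higher and 2 lower, with a median of 0.27 beside -0.11, where 24.5% of genes were higher and 48.4% lower. The filter shapes the values under 1 CPM. On chromosome V 16 of 22 members under 1 CPM were higher at a median of 1.11, beside 30.1% of protein-coding genes of chromosome V at that level and a median of 0.38. However, 18 of these 22 reached the filter level in all mutant but not in all wild-type libraries, 15 of them higher, and 1 of the 3 that reached it in all 6 libraries was higher. Between 1 and 8 CPM 9 of 20 members of chromosome V were higher, near the 38.0% of its protein-coding genes at that level. The 6 X-linked members of that level were all called higher, where 60.2% of X-linked protein-coding genes were, and X-linked medians were 0.48 under 1 CPM, 0.73 up to 8 CPM and 0.59 above. Of these 6 members, 5 reached the filter level in all 6 libraries, and 1, nhr-45, in full only in the mutant libraries. On chromosomes I to IV 2 of 12 members under 1 CPM were higher, with a median of 0.48 beside 0.34 and 25.7% called higher among protein-coding genes.

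**Figure D3:**
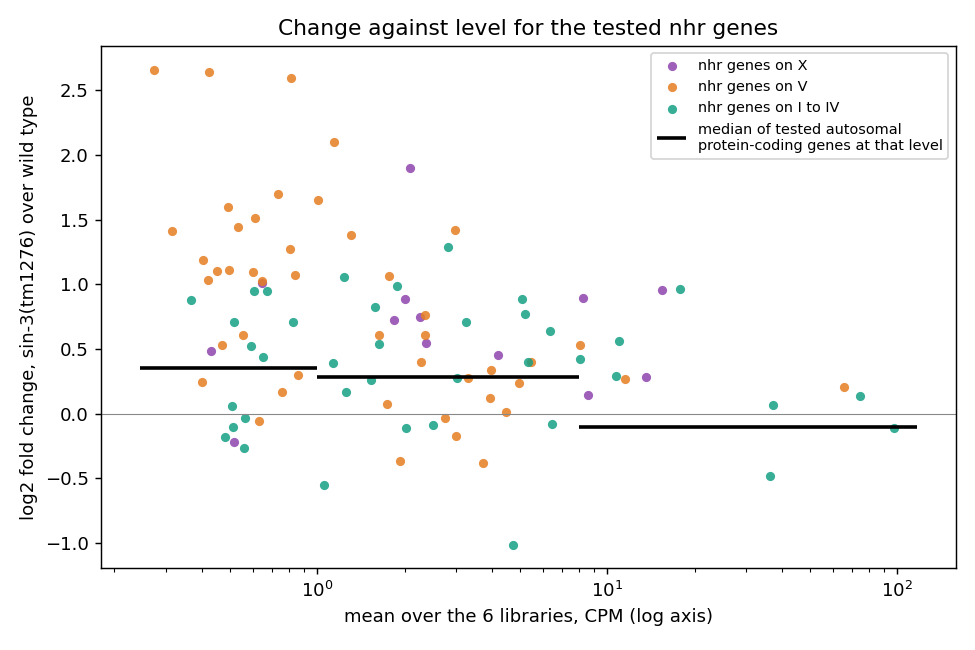
Log2 fold change of sin-3(tm1276) over wild type against the mean CPM over the 6 libraries for the tested receptor genes, coloured by chromosome, with the median of all tested autosomal protein-coding genes at each level as black lines (0.35 under 1 CPM, 0.28 from there to 8 CPM and -0.11 above). Points above 2 on the vertical axis are all chromosome V genes.

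Among receptors listed as metabolic, nhr-86 included, the abundant members changed little. Of 12 such genes, all tested, 6 were higher, 1 lower and 5 not called, at a median log2 fold change of 0.10, beside 31.3% higher over all tested genes. The gene nhr-49 (WBGene00003639, chromosome I, 9869651 to 9874680 in WBcel235) had 80.2, 78.1 and 76.2 CPM in the mutant libraries, against 70.2, 72.4 and 70.6 CPM in the wild-type libraries. Its libraries did not overlap between genotypes, and the log2 fold change was 0.14 ± 0.040 (SE, adjusted p = 0.00828), which DESeq2 did not call. Its partner in repressing lipid genes, nhr-66, had 95.7, 94.4 and 90.7 CPM in the mutant libraries, against 103, 98.0 and 102 CPM in the wild-type libraries, which was lower in every mutant library, by a small amount, at -0.11 ± 0.038 (SE, adjusted p = 0.0231). This direction rests on the scaling, since under library totals the value was 0.058. The call was also lost with TMM on autosomal genes, with other filters and without mutant replicate 3 or wild-type replicate 1. Another partner of nhr-49, the desaturase regulator nhr-13, had 9.57, 9.73 and 9.29 CPM in the mutant libraries, against 7.15, 5.89 and 6.73 CPM in the wild-type libraries, at 0.53 ± 0.11 (SE, adjusted p = 0.00106).

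The HNF4-like gene nhr-86 had 70.6, 71.0 and 69.7 CPM in the mutant libraries, against 61.6, 58.8 and 62.6 CPM in the wild-type libraries, again with no overlap, at 0.21 ± 0.042 (SE, adjusted p = 0.00066). The gene nhr-10, which with nhr-68 turns on the propionate breakdown shunt, had 9.15, 9.79 and 8.80 CPM in the mutant libraries, against 8.89, 6.75 and 5.04 CPM in the wild-type libraries. Wild-type replicates spread widely for it and overlapped the mutant, and its call at 0.42 ± 0.17 (SE, adjusted p = 0.0445) was lost without wild-type replicate 2 or 3 or without any 1 mutant replicate. Larger changes belonged to low members of the list. Another HNF4-like gene, nhr-64, which acts in lipid storage, had 4.50, 4.46 and 3.05 CPM in the mutant libraries, against 1.62, 1.64 and 1.65 CPM in the wild-type libraries, at 1.29 ± 0.20 (SE, adjusted p = 7.6e-05). The fat storage regulator nhr-76 had 1.58, 1.60 and 1.82 CPM in the mutant libraries, against 0.681, 1.04 and 0.678 CPM in the wild-type libraries, at 1.06 ± 0.26 (SE, adjusted p = 0.00288). Neither overlapped between genotypes. The members not called were nhr-8 at -0.55 ± 0.38 (SE), nhr-62 at 0.062 ± 0.33 (SE), nhr-68 at -0.035 ± 0.28 (SE), nhr-80 at -0.10 ± 0.46 (SE) and nhr-114 at -0.17 ± 0.26 (SE). Under library totals nhr-68 was at 0.13 and nhr-80 at 0.061.

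**Figure D4:**
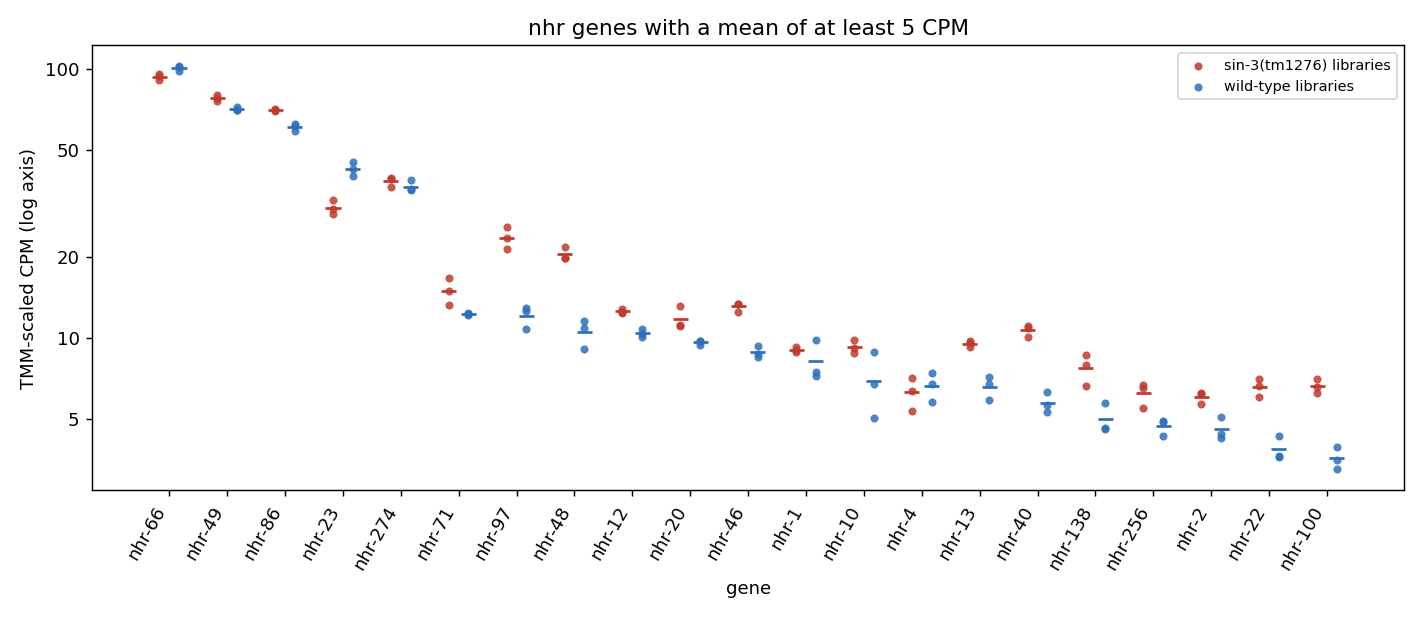
TMM-scaled CPM on a log axis for the 21 receptor genes averaging 5 CPM or more, in the 3 sin-3(tm1276) libraries (red, left) and the 3 wild-type libraries (blue, right) of each gene, with short lines at the means. From nhr-97 to the right most genes have all red points above all blue ones, while nhr-23 and nhr-66 at the left have them below, nhr-66 only slightly and not under library totals.

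Receptors with orthologues in insects or vertebrates moved in both directions. Of 15 such genes, 11 with an nhr symbol and daf-12, fax-1, sex-1 and unc-55 beside them, 8 were tested, of which 3 were higher and 1 lower, beside 31.3% higher and 30.7% lower among all tested genes. The lower gene was nhr-23 (WBGene00003622, chromosome I, 7214745 to 7221299), the ROR orthologue that drives moulting and is also required in spermatogenesis. It had 32.4, 30.3 and 28.8 CPM in the mutant libraries, against 42.4, 45.01 and 39.9 CPM in the wild-type libraries. The groups were well apart, and the log2 fold change was -0.48 ± 0.065 (SE, adjusted p = 1.9e-05). The X-linked nhr-48 (WBGene00003638, chromosome X, 15708213 to 15716875), a relative of daf-12 and nhr-8, had 21.8, 19.8 and 19.8 CPM in the mutant libraries, against 11.6, 10.9 and 9.10 CPM in the wild-type libraries, with no overlap, at 0.96 ± 0.10 (SE, adjusted p = 1.6e-06).

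The TR2/TR4 orthologue nhr-41 had 19, 21 and 29 reads in the mutant libraries, against 7, 8 and 14 reads in the wild-type libraries, at 0.95 ± 0.36 (SE, adjusted p = 0.0357), a call that was lost without mutant replicate 1 or 3 or wild-type replicate 1 or 2. It reached the filter level in all 3 mutant libraries but in only 1 wild-type library. The X-linked sex-1, an X signal element that represses xol-1, had 8.22, 5.90 and 6.70 CPM in the mutant libraries, against 4.59, 4.93 and 4.32 CPM in the wild-type libraries, at 0.58 ± 0.15 (SE, adjusted p = 0.00358). The X-linked daf-12, the receptor of dafachronic acid, had 1.65, 1.57 and 1.44 CPM in the mutant libraries, against 1.19, 1.30 and 1.19 CPM in the wild-type libraries. The daf-12 groups did not overlap, though the fold change of 0.34 ± 0.23 (SE, adjusted p = 0.204) did not pass the threshold. The NR4A receptor gene of the spermatheca, nhr-6, was at 0.88 ± 0.44 (SE, adjusted p = 0.0945), and under library totals it was called higher at 1.04 (adjusted p = 0.049). The E75-like nhr-85 was at 0.71 ± 0.44 (SE, adjusted p = 0.178). The cholesterol and xenobiotic receptor gene nhr-8 was at -0.55 ± 0.38 (SE, adjusted p = 0.217), and without mutant replicate 1 it was called lower at -0.998 (adjusted p = 0.0397), the only setting tried that called it.

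Several of the best-known developmental receptors were barely read. The SF-1 orthologue nhr-25, which is X-linked and shapes somatic gonad and epidermis, had 15, 16 and 10 reads in the mutant libraries, against 4, 3 and 2 reads in the wild-type libraries, with no overlap. The germ cell nuclear factor relative nhr-91 had 8, 7 and 22 reads in the mutant libraries, against 9, 6 and 3 reads in the wild-type libraries, with overlap. Fewer still were read for nhr-239, with 0, 3 and 1 reads in the mutant libraries, against 2, 1 and 1 reads in the wild-type libraries, and for nhr-111, with 1 read in all. None of these was tested.

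The X-linked receptors with the smallest p were nhr-48, nhr-40, nhr-45 and nhr-28. The gene nhr-40 (WBGene00003630, chromosome X, 2594003 to 2606732), needed for embryonic muscle development, had 11.1, 10.9 and 10.1 CPM in the mutant libraries, against 5.61, 5.32 and 6.31 CPM in the wild-type libraries, at 0.89 ± 0.11 (SE, adjusted p = 1.1e-05). The gene nhr-45 (WBGene00003635, chromosome X, 4656433 to 4660318), which links mitochondrial function to detoxification, had 3.27, 2.89 and 3.75 CPM in the mutant libraries, against 0.425, 1.04 and 1.19 CPM in the wild-type libraries. All mutant values were more than 2 times any wild-type value, and its log2 fold change of 1.90 ± 0.28 (SE, adjusted p = 5.5e-05) was the largest on the X. In wild-type replicate 1 nhr-45 had 10 reads, just under the filter level, and passed in full only in the mutant libraries. A difference was thus part of how it passed. For nhr-28 the values were 2.96, 2.39 and 2.49 CPM in the mutant libraries, against 1.361, 1.34 and 1.52 CPM in the wild-type libraries, at 0.88 ± 0.20 (SE, adjusted p = 0.00166). The abundant nhr-71 and nhr-1 changed less. The gene nhr-71 had 16.7, 14.9 and 13.3 CPM in the mutant libraries, against 12.2, 12.2 and 12.4 CPM in the wild-type libraries, at 0.28 ± 0.100 (SE, adjusted p = 0.0227), a call lost without mutant replicate 1 or 2 or wild-type replicate 2. For nhr-1 the levels were 9.22, 8.88 and 9.05 CPM in the mutant libraries, against 9.83, 7.49 and 7.24 CPM in the wild-type libraries. These overlapped, and at 0.14 ± 0.13 (SE, adjusted p = 0.336) the gene was not called. Across the 13 tested X-linked members the log2 fold change ran from -0.22, for the uncalled nhr-14, to 1.90.

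Chromosome V held the receptors with the steepest rises, all from low wild-type levels. The 4 with the smallest p were nhr-57, nhr-84, nhr-204 and nhr-116. Of these, nhr-57 and nhr-116 were under the filter level of 0.400 CPM in every wild-type library, and nhr-204 was under it in wild-type replicate 3. They passed through the mutant libraries, so a difference was part of how they came to be tested. The hypoxia-responsive gene nhr-57 (WBGene00003647, chromosome V, 4131889 to 4135102), a target of HIF-1, had 32, 44 and 45 reads in the mutant libraries, against 6, 5 and 5 reads in the wild-type libraries. The groups were far apart, and the log2 fold change was 2.59 ± 0.32 (SE, adjusted p = 9.1e-06). The gene nhr-204 (WBGene00019816, chromosome V, 254838 to 258830) had 46, 58 and 56 reads in the mutant libraries, against 14, 11 and 5 reads in the wild-type libraries, at 2.10 ± 0.32 (SE, adjusted p = 5e-05). Its fellow gene on V, nhr-84, had 94, 143 and 141 reads in the mutant libraries, against 35, 32 and 47 reads in the wild-type libraries, at 1.42 ± 0.20 (SE, adjusted p = 3.1e-05). Neither overlapped between genotypes. The gene nhr-116 had 17, 29 and 18 reads in the mutant libraries, against 3, 3 and 2 reads in the wild-type libraries, at or below the 3 reads that a count of 0 allows in each wild-type library. Its summed reads of 64 in the mutant and 8 in wild type gave a ratio of 6.50 with an exact 95% interval of 3.11 to 15.7 for counting error. The highest fitted change on V was that of nhr-123, a gene chosen after its values were seen, with 11, 14 and 16 reads in the mutant libraries, against 1, 1 and 3 reads in the wild-type libraries. It too was under the filter level in every wild-type library. Its sums of 41 reads in the mutant and 5 in wild type gave a ratio of 6.67 with an exact 95% interval of 2.64 to 21.6.

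Further changes above 1 on chromosome V, among genes that averaged 1 CPM or more, were found for nhr-135, nhr-102 and nhr-145. The gene nhr-135 had 1.54, 1.51 and 1.54 CPM in the mutant libraries, against 0.553, 0.563 and 0.339 CPM in the wild-type libraries, at 1.65 ± 0.28 (SE, adjusted p = 0.00017). For nhr-102 the levels were 1.58, 2.17 and 1.93 CPM in the mutant libraries, against 0.638, 0.865 and 0.678 CPM in the wild-type libraries, at 1.38 ± 0.26 (SE, adjusted p = 0.00034). For nhr-145 they were 2.54, 2.29 and 2.35 CPM in the mutant libraries, against 1.45, 1.17 and 0.805 CPM in the wild-type libraries, at 1.07 ± 0.24 (SE, adjusted p = 0.00133). None of the 3 overlapped between genotypes, though nhr-135 was under the filter level in wild-type replicate 3 and passed in full only in the mutant. The abundant members of this chromosome other than nhr-86 and nhr-13 were nhr-12 and nhr-256. The gene nhr-12 had 12.4, 12.5 and 12.8 CPM in the mutant libraries, against 10.4, 10.1 and 10.8 CPM in the wild-type libraries, at 0.27 ± 0.092 (SE, adjusted p = 0.0205). Its mutant values were higher throughout, but the call was lost without mutant replicate 2 or 3 or wild-type replicate 2. For nhr-256 the levels were 6.69, 6.53 and 5.47 CPM in the mutant libraries, against 4.89, 4.93 and 4.32 CPM in the wild-type libraries, at 0.40 ± 0.14 (SE, adjusted p = 0.0209). They did not overlap either, and this call was lost without mutant replicate 1 or 2 or wild-type replicate 3. Tested members of chromosome V ran from -0.38, for the uncalled nhr-47, to 2.66.

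On chromosomes I to IV the members were the most mixed. The largest decrease of the family was that of nhr-61 (WBGene00003651, chromosome II, 14816136 to 14818543), with 3.15, 3.14 and 3.16 CPM in the mutant libraries, against 6.55, 5.67 and 6.82 CPM in the wild-type libraries. Its groups were well apart, at -1.01 ± 0.14 (SE, adjusted p = 2.8e-05). The chromosome IV gene nhr-97 (WBGene00003687, chromosome IV, 9757641 to 9764499) went the other way, with 25.9, 23.5 and 21.4 CPM in the mutant libraries, against 10.8, 12.5 and 12.9 CPM in the wild-type libraries, at 0.97 ± 0.096 (SE, adjusted p = 9.7e-07). Likewise abundant, nhr-46 and nhr-22 were higher too. The gene nhr-46 had 13.1 ± 0.555 CPM in the mutant and 8.86 ± 0.437 CPM in wild type (SD, n = 3 each), at 0.56 ± 0.097 (SE, adjusted p = 0.00017), and no overlap. For nhr-22 the means were 6.59 ± 0.508 CPM in the mutant and 3.86 ± 0.401 CPM in wild type (SD, n = 3 each), at 0.77 ± 0.14 (SE, adjusted p = 0.00028), again without overlap. The gene nhr-104 had 2.65, 2.64 and 2.24 CPM in the mutant libraries, against 1.45, 0.909 and 1.44 CPM in the wild-type libraries, at 0.99 ± 0.23 (SE, adjusted p = 0.00180), with no overlap.

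Smaller rises were called for nhr-20, at 0.29 ± 0.10 (SE, adjusted p = 0.0260), and for nhr-2, a gene of early embryonic development, at 0.40 ± 0.14 (SE, adjusted p = 0.0192). The call of nhr-20 was lost without mutant replicate 1 or wild-type replicate 2 or 3, and that of nhr-2 without mutant replicate 2 or wild-type replicate 2 or 3. The abundant nhr-274 had 36.4, 38.9 and 39.4 CPM in the mutant libraries, against 38.5, 35.7 and 35.5 CPM in the wild-type libraries. It overlapped between genotypes and was not called, at 0.065 ± 0.059 (SE). The same was true of nhr-4, with 6.38, 5.34 and 7.12 CPM in the mutant libraries, against 7.40, 6.75 and 5.76 CPM in the wild-type libraries, at -0.082 ± 0.15 (SE).

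**Figure D5:**
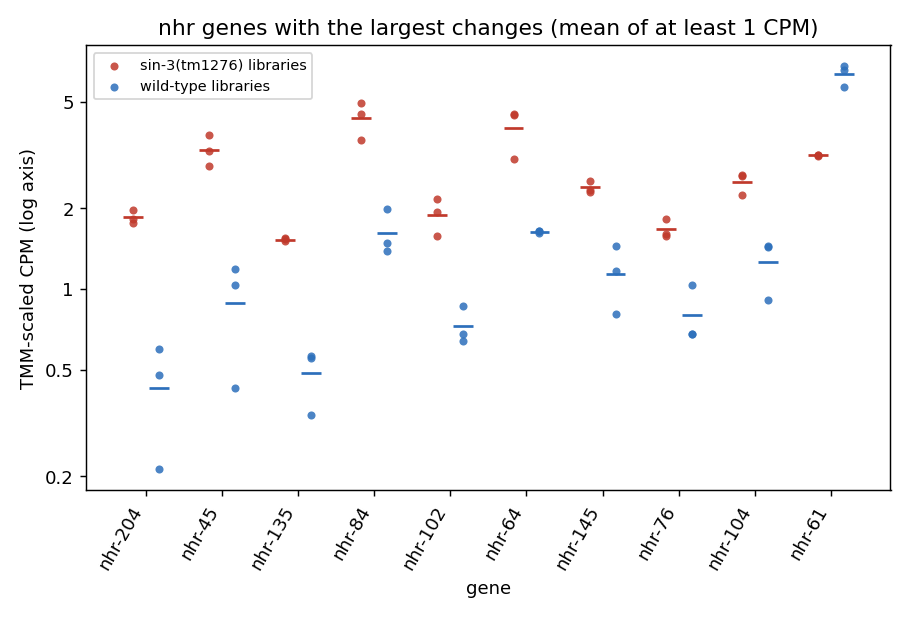
TMM-scaled CPM on a log axis for the 10 receptor genes with the largest called changes with no overlap and 1 CPM or more on average, in the 3 sin-3(tm1276) libraries (red, left) and the 3 wild-type libraries (blue, right), with lines at the means. The mutant points are above the wild-type points for 9 genes and below them for nhr-61.

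Receptor genes lie close together on chromosome V, where the median gap between neighbouring members was 5005 bases, beside 161410 bases on chromosomes I to IV and 376389 bases on the X. Of 101 neighbouring pairs less than 5000 bases apart in the whole genome, 83 were on chromosome V. In 63 of the 101 pairs neither gene was tested, and in 13 both were. Of these 13 pairs 6 had both genes higher, 4 had 1 gene higher and 3 had neither called, where 54 of all 97 tested members were higher and 28 of 45 on chromosome V. A pair entered only if both genes passed the filter, so a difference was part of how some pairs entered. On chromosome V 20 of the 45 tested members passed in all mutant but not in all wild-type libraries, 17 of them higher. They included nhr-134, nhr-96, nhr-286 and nhr-135. The 5 closest tested pairs lay on the same strand, 95 to 323 bases apart, and 4 of them had both genes higher. They were nhr-134 and nhr-96, at 1.27 ± 0.31 (SE) and 1.11 ± 0.37 (SE), nhr-286 and nhr-135, at 1.51 ± 0.47 (SE) and 1.65 ± 0.28 (SE), nhr-102 and nhr-84, at 1.38 ± 0.26 (SE) and 1.42 ± 0.20 (SE), and on chromosome IV nhr-138 and nhr-100, at 0.64 ± 0.14 (SE) and 0.89 ± 0.14 (SE). The remaining pair, nhr-87 and nhr-146, was not called for either gene, at -0.033 ± 0.34 (SE) and -0.27 ± 0.42 (SE). Calls of nhr-96 and nhr-286 ended without wild-type replicate 2 (adjusted p = 0.0835 and 0.0544), and that of nhr-96 also without mutant replicate 2. Nematode receptor genes have close copies, and the count tables hold reads without a unique alignment in a line of their own, outside any gene.

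Genes that work with the receptors moved in both directions. Of 12 cofactor, corepressor and ligand synthesis genes 7 were tested, of which 2 were higher and 3 lower, beside 31.3% higher and 30.7% lower among all tested genes, while under library totals 4 were higher and 1 lower. The corepressor gene din-1, whose product binds DAF-12, had 73.4, 62.1 and 60.1 CPM in the mutant libraries, against 50.4, 47.3 and 40.8 CPM in the wild-type libraries, at 0.50 ± 0.099 (SE, adjusted p = 0.00302). The SREBP gene sbp-1 had 7.19, 6.09 and 6.14 CPM in the mutant libraries, against 5.53, 4.80 and 4.62 CPM in the wild-type libraries, at 0.37 ± 0.14 (SE, adjusted p = 0.0277), a call lost without mutant replicate 1 or wild-type replicate 2 or 3, which leaves 1 higher gene, and under DESeq2. The lower genes were hsp-90, a chaperone of steroid receptors in vertebrates, at -0.61 ± 0.035 (SE, adjusted p = 3.9e-09), the CBP/p300 acetyltransferase gene cbp-1 at -0.23 ± 0.038 (SE, adjusted p = 0.00013) and the SUMO gene smo-1 at -0.19 ± 0.039 (SE, adjusted p = 0.00067), of which hsp-90 alone was called under library totals. The Mediator subunit gene mdt-15, whose product is a coactivator for NHR-49, had 132, 127 and 120.3 CPM in the mutant libraries, against 120.3, 123 and 113 CPM in the wild-type libraries, which overlapped between genotypes, at 0.089 ± 0.043 (SE, adjusted p = 0.0843). The NCoR-like gene gei-8 was at 0.24 ± 0.097 (SE, adjusted p = 0.0514). Enzymes of dafachronic acid synthesis were near or at 0, and hsd-1 and hsd-3 had no read. In all mutant libraries together daf-9 had 12 reads, against 2 in wild type, daf-36 had 6 reads, against 7 in wild type, and dhs-16 had 2 reads, against 0 in wild type.

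Of 8 targets of nhr-49, nhr-80 and nhr-13, 6 were tested, with 0 higher and 1 lower, beside 31.3% higher and 30.7% lower among all tested genes. The lower gene was acs-2, an acyl-CoA synthetase of fatty acid oxidation, with 1.31, 1.73 and 0.771 CPM in the mutant libraries, against 2.38, 2.55 and 2.63 CPM in the wild-type libraries, at -0.98 ± 0.26 (SE, adjusted p = 0.00466). The desaturase genes fat-5, fat-6 and fat-7 were at -0.41 ± 0.49 (SE), -0.52 ± 0.39 (SE) and 0.57 ± 0.54 (SE), with overlap in each. Of 5 propionate shunt genes, targets of nhr-10 and nhr-68, 0 were higher and 2 lower, beside 31.3% higher and 30.7% lower among all tested genes. The lower ones were alh-8, at -0.86 ± 0.089 (SE, adjusted p = 0.0002), and hach-1, at -0.15 ± 0.042 (SE, adjusted p = 0.00577), which was at 0.013 under library totals. Another gene of the shunt, ech-6, was called higher under library totals, at 0.20 (adjusted p = 0.0023), beside 0.036 ± 0.049 (SE, adjusted p = 0.544) with TMM. The reporter gene of this pathway, acdh-1, was at -0.35 ± 0.33 (SE, adjusted p = 0.413). For hphd-1 every mutant library was below every wild-type library, but at -0.79 ± 0.27 (SE, adjusted p = 0.0529) it was not called.

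The authors' deposited table lists 179 members, 163 of which have an adjusted p. Of these, 35 have an adjusted p under 0.05 with a positive log2 fold change and 3 with a negative one. The share called over all genes of that table is not given here. Of the 54 higher members 33 were higher in the authors' deposited table too, and the 3 lower members were lower there. Many of the receptor genes named overlap other genes. On their own strand these are nhr-8, nhr-40, nhr-46, nhr-57, nhr-64, nhr-66, nhr-104, nhr-138, nhr-146 and daf-12. On the other strand they are nhr-1, nhr-4, nhr-6, nhr-8, nhr-20, nhr-25, nhr-28, nhr-41, nhr-46, nhr-47, nhr-61, nhr-64, nhr-66, nhr-67, nhr-85, nhr-86, nhr-91, nhr-97, nhr-104, nhr-114, nhr-116, nhr-146, nhr-239, daf-12, fax-1 and unc-55, with up to 9 overlapping genes for nhr-46. Of the other genes given with values, cbp-1 and mdt-15 overlap genes on their own strand. On the other strand sin-3, din-1, gei-8, hsp-90, mdt-15, sbp-1, alh-8, fat-5, daf-36 and dhs-16 do. Whether reads were counted by strand is unknown from the labels and headers, so the effect on the levels of all these genes is not known.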

How the data were processed

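Deposited per library is a table of raw counts per gene, whole numbers that the authors did not normalize. HTSeq 0.7.2, STAR 2.7.3a, DESeq2 1.36.0 and fastp 0.20.1 are named, without their roles, per the submitters' processing notes. The build, annotation and strand setting behind the counts were not given in the sources used here. The authors' deposited table holds log2 fold changes with standard errors, p-values and, per the file headers, a mean signal per gene. Lines that name no gene, 8.73% to 9.22% of counted reads in the mutant and 9.43% to 10.9% in wild type, were left out. Of 46934 identifiers 46923 were matched to Ensembl release 115 of WBcel235, from which symbols, coordinates and exon lengths were taken.

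The test on counts of all genes was run with edgeR 4.0.16 in R 4.3.3 (filterByExpr, TMM, robust quasi-likelihood F test for genotype) with p adjusted by Benjamini-Hochberg over 9787 genes and a threshold of 0.05. Log2 fold changes above 0 are higher in the mutant, and the SE is the log2 fold change divided by the root of F. The members and lists were chosen with earlier results of these data known. Named were sin-3, members averaging 5 CPM or more, the 10 largest called changes among those averaging 1 CPM or more with no overlap, the 4 smallest p on X and on V, tested genes of the conserved receptor and cofactor lists and the 5 closest tested pairs; others are given as members of lists, as ends of ranges or as said beside them. The steps were tested on simulated data. Libraries of a genotype differed by a chi-square of 12.5 to 18.8 per degree of freedom, so none copies another. DESeq2 1.42.0 and other scalings, filters and left-out libraries were tried as alternatives.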

Additional observations from a re-analysis of the deposited data

How the results depend on the processing

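Of the 57 called members, 57 kept call and direction under DESeq2 size factors in edgeR, 56 under library totals, 56 under TMM on autosomal genes, 52 with no filter and 33 with DESeq2. With an average of 1 CPM required, where fewer genes are tested, 37 were kept, 12 members of V were higher, the medians were 0.42 over all members and 0.36 on V, and 4 cofactor genes were higher. With 1 library left out 41 to 49 were kept, and 33 were kept whichever library was left out. DESeq2 called 31 members higher, 5 on X, 16 on V and 10 on I to IV, and 1 cofactor gene, beside 2430 higher of all 12802 genes it tested. The number of members it tested, in all or by chromosome, is not given here. Its member median was 0.51, and the cause of the lower number of calls was not tested. Under library totals the medians were 0.70 over all members, 0.89 on X, 0.78 on V and 0.57 on I to IV, with 4 cofactor genes higher and 1 lower, and with autosomal TMM the median over all members was 0.57 and 4 cofactor genes were higher. At each library's own depth, at least 10 reads were found for 41.6% ± 1.70 of the members in the mutant and 29.1% ± 0.568 in wild type (SD, n = 3 each). Protein-coding genes on X, V and I to IV also reached 10 reads in greater number in the mutant, as given above.

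With 1 library left out, higher members ranged from 41 (without wild-type replicate 2) to 53, and lower ones from 2 to 4. Their medians ranged from 0.52 to 0.61 over all members, 0.57 to 0.84 on X, 0.73 to 0.93 on V and 0.27 to 0.43 on I to IV. Higher calls ranged from 8 to 11 on X, 23 to 27 on V and 10 (without wild-type replicate 2) to 15 on I to IV, and lower calls from 0 to 1 on V and 2 to 4 on I to IV. Lower conserved receptors ranged from 1 to 2 (without mutant replicate 1) and higher cofactor genes from 1 (without mutant replicate 1, wild-type replicate 2 or wild-type replicate 3) to 3.

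Among the receptors named, directions turned under library totals for nhr-66 (0.058), nhr-4 (0.086), nhr-87 (0.13), nhr-68 (0.13) and nhr-80 (0.061). That of nhr-87 also turned with autosomal TMM (0.0034). With 1 library left out nhr-4 ranged from -0.19 to 0.016 (without mutant replicate 2), nhr-146 from -0.63 to 0.18 (without wild-type replicate 2), and nhr-87 from -0.26 to 0.17 (without wild-type replicate 1) with 0.0048 without wild-type replicate 2. The call of nhr-66 was also lost without mutant replicate 3 or wild-type replicate 1 (-0.094 and -0.10). With the replicate number as a block 52 members were higher and 3 lower; same-numbered libraries had deviations correlated at -0.25, -0.068 and -0.10, so the number does not pair them. Depth limits the 172 untested members, none of which had more than 52 reads over the 3 mutant libraries or 25 over the 3 wild-type libraries.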
